A study of Mus musculus with 2 samples.

Results

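The genes described here are 10 genes of epithelial adhesion and cell junctions: Cdh1, Cdh2, Ctnna1, Tjp1, Cldn6, Cldn7, Jam2, Epcam, Itgb1 and Vim. They were listed by name, and all 10 were found among the 27998 genes measured. They were followed in mouse induced pluripotent stem cells (iPSCs), which are body cells returned to an embryo-like state from which they can form all tissues. One droplet library came from cells with SRFΔ/Δ, in which the gene of serum response factor is deleted (KO), and 1 came from SRFf/f cells, which keep the floxed gene and served as wild type (WT). Both were grown in medium with serum. The labels name neither the Cre that made the deletion nor the number of clones behind each culture. Parallel bulk RNA sequencing was not analysed here.

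Epithelial cells hold to one another through adherens junctions, where cadherins of neighbouring cells bind each other and catenins tie them to the actin cytoskeleton. Tight junctions lie nearer the free surface, seal the space between cells with claudins and junctional adhesion molecules, and are organised inside the cell by zonula occludens proteins. Integrins attach the cell to the matrix. Pluripotent stem cells grow as compact epithelial colonies held by E-cadherin, and the primitive endoderm, the first endoderm layer of the embryo, lays down a basement membrane under a sheet of polarised cells. Serum response factor is a transcription factor that binds the CArG box and controls many genes of the actin cytoskeleton.

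Stretches of DNA just before annotated start sites of these genes were read on both strands. The motifs sought were that CArG box and CAGGTG (or CACCTG), the E-box bound by the Snail and Zeb repressors of epithelial genes. RefSeq promoter windows on GRCm38.p6 were at hand for 6 of the 10 members, as 7 windows of 250 bases before a start site. None of the 7 windows held a CArG box, against 1.47% of all 32851 windows of that length. CAGGTG was found in 3 of the 7, against 17.2% of all windows. These were the windows of Epcam and Cldn6 and the second start of Cldn7. The windows of Tjp1, Vim and Itgb1 and the first start of Cldn7 held no match. By the gene positions given below, the windows of Epcam, Itgb1 and the first start of Cldn7 end just before the gene. Those of Tjp1, Vim and the second start of Cldn7 lie inside it, and that of Cldn6 crosses its first base. The Cldn6 and Cldn7 matches thus lie inside their genes, and only the Epcam matches lie upstream of the gene. The matches are shown because some of these windows hold the E-box and others do not. They describe sequence and are not evidence of binding. Capitals mark the E-box, and all sequences are read on the plus strand of the genome. Epcam is shown as its 250 bases at chr17:87635729-87635978, with matches that begin 187 and 19 bases before the start. The others are shown as 30 bases around each match, at chr17:23679260-23679289 for Cldn6 and at chr11:69965312-69965341 and chr11:69965352-69965381 for Cldn7.
Epcam upstream: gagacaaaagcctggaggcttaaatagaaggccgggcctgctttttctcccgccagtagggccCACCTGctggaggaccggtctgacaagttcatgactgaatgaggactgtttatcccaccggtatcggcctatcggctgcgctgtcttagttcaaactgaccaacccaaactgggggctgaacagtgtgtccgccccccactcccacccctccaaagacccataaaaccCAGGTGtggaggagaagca
Cldn6 site: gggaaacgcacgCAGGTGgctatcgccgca
Cldn7 site 1: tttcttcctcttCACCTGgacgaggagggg
Cldn7 site 2: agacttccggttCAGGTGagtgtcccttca

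Cells were taken when they held at least 1000 detected genes, 1 to 10% mitochondrial counts and fewer than 5 unique molecular identifiers (UMIs, the counted RNA molecules) over the feeder fibroblast genes Col1a2, Col3a1 and Acta2. They were then divided by their UMIs over 8 genes of primitive endoderm: Gata6, Gata4, Sox17, Pdgfra, Dab2, Cubn, Lrp2 and Amn. Endoderm-low cells had at most 1 such UMI, 580 in the KO library and 873 in the WT library. Endoderm-high cells had 10 or more, 94 in the KO library and 3 in the WT library. Between them, with 2 to 9 UMIs, lay 57 KO and 17 WT cells, and 22 KO and 9 WT cells carried 5 or more fibroblast UMIs. The endoderm-low cells gave 14506760 UMIs in KO and 22705066 in WT, with medians of 24556 and 26656 UMIs per cell, and the KO endoderm-high cells gave 2256951 with a median of 22945.5. A level below is the summed UMIs of a class per 1000000 of its UMIs (CPM). With 1 library per genotype no test between genotypes exists. Intervals, at 95%, reflect the counting of molecules and not how much cultures, clones or library preparations vary. Shares of cells with a UMI follow the level at these counts, so fewer expressing cells and less RNA per cell cannot be told apart.

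The labels held in the measured cells. Srf had 3 UMIs in the KO endoderm-low cells and 196 in the WT ones, and 0 in the KO endoderm-high cells, while the KO fibroblast-like cells held 14. All 9 pluripotency markers were detected in both endoderm-low classes, at a summed 10328.4 CPM in KO and 13402.0 CPM in WT, and their sum was 4819.8 CPM in the KO endoderm-high cells. Primitive endoderm markers outside the rule summed to 1936.7 CPM in the KO endoderm-high cells, against 15.3 and 5.11 CPM in KO and WT endoderm-low cells. Feeder fibroblast markers summed to 24.8 CPM in KO and 18.3 CPM in WT endoderm-low cells and to 10013.0 CPM in the KO fibroblast-like cells. A list of trophectoderm and keratin genes summed to 33.0 CPM in KO and 62.8 CPM in WT endoderm-low cells, and to 31.5 CPM in both without the 11 KO and 28 WT cells that held fewer than 3 UMIs of the pluripotency gene Pou5f1. The part of these differences in the values of the members was not tested. Only 2 cell barcodes occurred in both libraries. Dab2 is also a macrophage gene, and 2 of the 94 KO and 2 of the 3 WT endoderm-high cells held 5 or more UMIs of the macrophage genes Pf4, Ccl6 and Wfdc17. Without the 2 KO cells the ratios of the members to KO endoderm-low cells moved by at most 0.02 on the log2 scale, except those of Vim, given below, and Cdh2 (-0.42 from 3 UMIs). The counts of members and of list genes past 1.5 fold were the same without them.

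Among endoderm-low cells the junction genes divided by gene rather than moving as a group. E-cadherin and integrin beta 1 RNA were higher in the KO library, Cldn7 and Jam2 were lower, and Epcam, alpha-catenin, Tjp1, Cldn6 and Vim lay within 1.5 fold. Of the 9 members with a mean of at least 10 CPM, 2 were at least 1.5 fold higher in KO, where 4.57% of all 6440 genes tested were, and 2 were at least 1.5 fold lower, where 2.84% of all genes were. The median log2 ratio of these 9 was -0.12, and that of all genes was 0.06 with its 10th and 90th percentiles at -0.32 and 0.44. In KO endoderm-high cells the picture was broader: 6 of 9 members were at least 1.5 fold higher than in KO endoderm-low cells, against 26.9% of 6967 genes, and 1 was lower, against 11.3%. The median of the members there was 0.79, and that of all genes was 0.11.

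**Figure D1:**
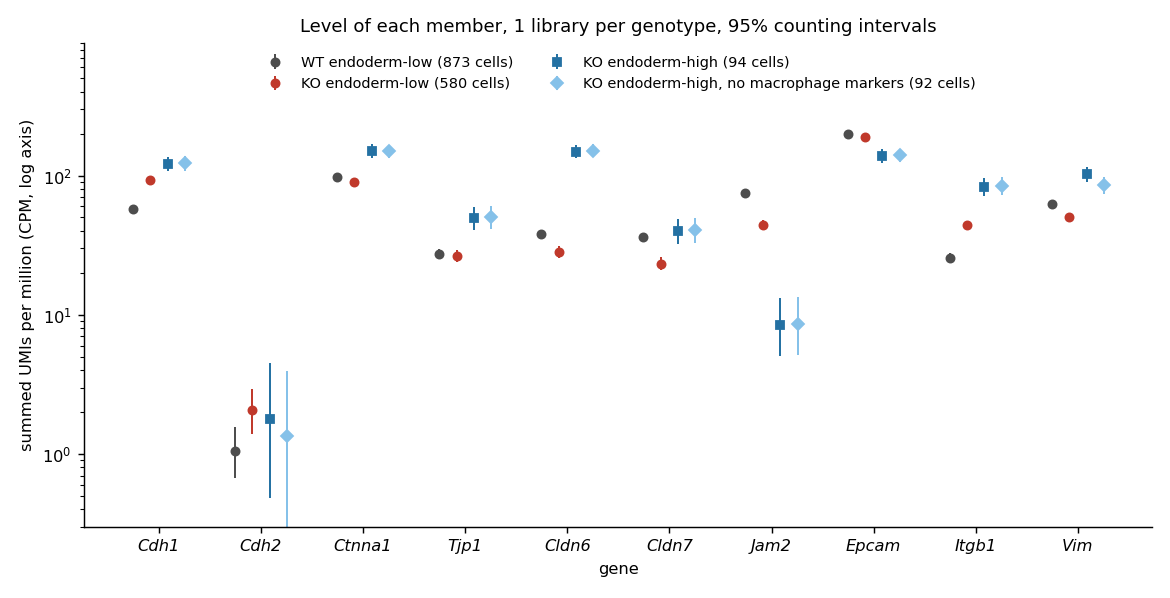
Level of the 10 members in CPM (log axis) in WT endoderm-low, KO endoderm-low and KO endoderm-high cells, the last also without the 2 cells that carried macrophage genes. Bars are 95% Poisson intervals of the summed counts. Cdh1 and Itgb1 step up from WT to KO to endoderm-high cells, whereas Jam2 steps down to 8.42 CPM and Cldn6 is highest in the endoderm-high cells, at 148.4 CPM.

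**Figure D2:**
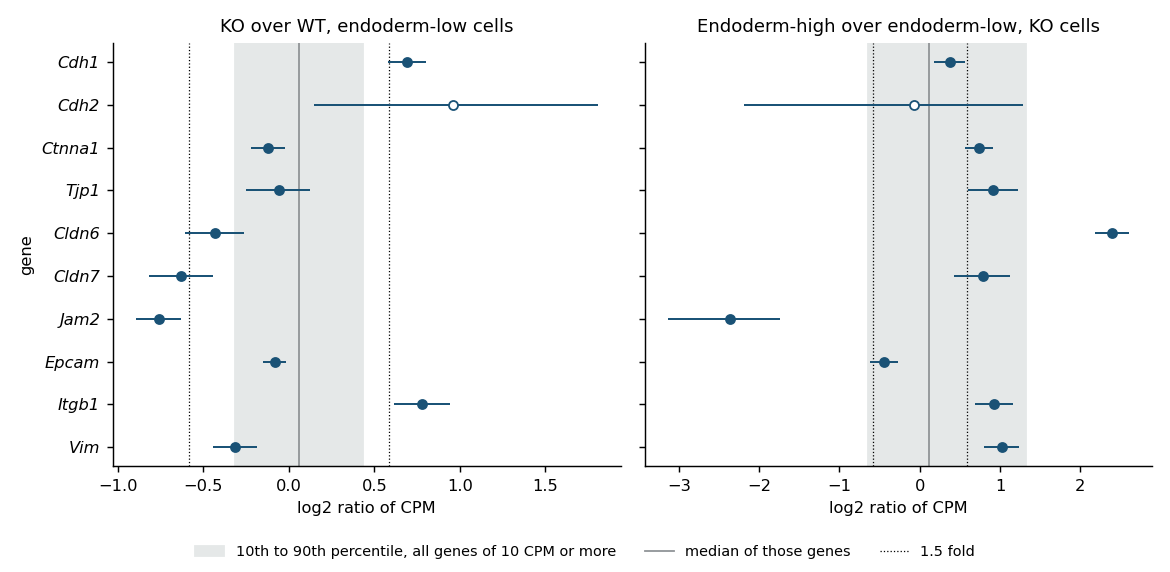
Log2 ratio of each member with its 95% counting interval, for KO over WT endoderm-low cells on the left and KO endoderm-high over endoderm-low cells on the right. The band spans the 10th to 90th percentiles of all genes of 10 CPM or more, the grey line is their median, dotted lines mark 1.5 fold, and the open circle is Cdh2, which lay under 10 CPM. On the left Cdh1 and Itgb1 lie right of the band and Cldn6, Cldn7 and Jam2 left of it. On the right Cldn6 and Jam2 lie outside it.

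Cdh1 (E-cadherin, chr8:106603351-106670246) is the cadherin that joins the cells of epithelia and of stem cell colonies. It was counted at 57.7 CPM (54.7 to 60.9) in WT endoderm-low cells, 93.3 CPM (88.4 to 98.4) in KO endoderm-low cells and 121.0 CPM (107.0 to 136.2) in KO endoderm-high cells. The 3 intervals did not overlap, and both KO classes were above the WT endoderm-low cells. The log2 ratio of KO over WT in endoderm-low cells was 0.69 (0.58 to 0.80), above 97.1% of the genes tested. Between the KO classes it was 0.38 (0.18 to 0.56), which is under 1.5 fold and above 64.7% of genes. Among cells of raised chromosome 8 share, described below, this second ratio was 0.14. KO cells with 2 to 9 endoderm UMIs stood at 82.0 CPM (67.8 to 98.2), with no step over the endoderm-low cells. With mitochondrial shares of 1 to 5% the ratio of KO over WT was 0.54 and with 0 to 10% it was 0.48, both under 1.5 fold.

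More cells carried the transcript as well. With every cell thinned to 10365 UMIs, Cdh1 was seen in 55.6% (51.2 to 59.9) of 518 KO and 41.8% (38.4 to 45.4) of 789 WT endoderm-low cells, and in 72.5% (62.2 to 81.4) of 91 KO endoderm-high cells. Thinning left out 62, 84 and 3 shallower cells of these classes, and without it the shares were 77.2%, 66.9% and 87.2%. Fibroblast-like cells, which should lack E-cadherin, gave 0 of 17 thinned KO cells with a Cdh1 UMI (exact upper bound 19.5%) and 9.09% of the 22 cells without thinning, at a median of 26799 UMIs.

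Cdh2 (N-cadherin, chr18:16588877-16809246, minus strand) replaces E-cadherin in many mesenchymal and neural cells. It had 30 UMIs in KO and 24 in WT endoderm-low cells and 4 in KO endoderm-high cells, which is 2.07, 1.06 and 1.77 CPM. All were under the 10 CPM used for counts of genes. Its log2 ratio of KO over WT was 0.96 with an interval of 0.15 to 1.81, and the endoderm-high value was not separable from the endoderm-low one at this depth (-0.08, -2.19 to 1.28). In fibroblast-like cells it reached 25.8 CPM (14.7 to 41.9) in KO and 41.5 CPM (16.7 to 85.5) in WT. The thinned share was 2.32% (1.203 to 4.01) in KO and 0.887% (0.357 to 1.82) in WT endoderm-low cells, and these intervals overlapped.

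Ctnna1 (alpha-catenin, chr18:35118859-35254779) links the cadherin complex to actin. It stood at 97.8 CPM (93.8 to 101.9) in WT and 89.96 CPM (85.1 to 94.97) in KO endoderm-low cells, a log2 ratio of -0.12 (-0.22 to -0.02). KO endoderm-high cells had 150.2 CPM (134.6 to 167.1), which was 0.74 (0.56 to 0.91) above the KO endoderm-low cells and above 78.0% of the genes tested, and 0.57, under 1.5 fold, with TMM scaling. The share of cells followed the same order, at 59.6% (56.0 to 63.0) in WT endoderm-low, 57.7% (53.3 to 62.0) in KO endoderm-low and 75.8% (65.7 to 84.2) in KO endoderm-high cells. Fibroblast-like cells carried it too, at 103.1 CPM (79.4 to 131.7) in KO, a level close to those of the endoderm-low classes.

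The wider adherens junction list of 12 genes gives the surroundings of these members. In endoderm-low cells 1 of its 10 genes at 10 CPM or more was higher in KO, which was Cdh1, against 4.57% of all genes. None was lower, against 2.84%. In the KO endoderm-high cells 4 of 9 were higher and 2 lower than in the endoderm-low cells, where 26.9% and 11.3% of all genes were. The nectin Pvrl2 had the largest rise in this comparison, from 45.4 to 112.1 CPM (log2 ratio 1.31, 1.09 to 1.52), followed by the p120 catenin Ctnnd1 (0.90) and beta-catenin Ctnnb1 (0.87). Plekha7, which anchors microtubules at the junction, went the other way, from 28.6 to 9.75 CPM (-1.52, -2.24 to -0.94).

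Tjp1 (ZO-1, chr7:65296165-65527781, minus strand) is the scaffold that holds claudins and links them to actin. It was at 27.5 CPM (25.4 to 29.7) in WT and 26.3 CPM (23.8 to 29.1) in KO endoderm-low cells, with overlapping intervals and a log2 ratio of -0.06 (-0.25 to 0.12). KO endoderm-high cells had 49.6 CPM (40.9 to 59.7), a log2 ratio of 0.92 (0.60 to 1.22) over the endoderm-low cells. The thinned share was 20.8% (17.4 to 24.6) of KO endoderm-low and 39.6% (29.5 to 50.4) of endoderm-high cells, without overlap of the intervals. KO fibroblast-like cells stood at 22.6 CPM (12.3 to 37.9), near the endoderm-low level.

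Cldn6 (claudin 6, chr17:23679249-23682446) is a claudin of embryonic epithelia. It was at 38.1 CPM (35.6 to 40.7) in WT and 28.1 CPM (25.5 to 31.0) in KO endoderm-low cells, and at 148.4 CPM (133.0 to 165.2) in KO endoderm-high cells. KO endoderm-low cells were thus lower than WT by 0.44 on the log2 scale (-0.44, -0.61 to -0.26), under 1.5 fold, and the endoderm-high cells were above both. In cells of usual chromosome 8 share, described below, KO over WT was -0.69, past 1.5 fold. The log2 ratio between the KO classes was 2.40 (2.19 to 2.61), above 96.7% of the genes tested and the highest of the members. Without the 2 macrophage-marked cells it was 2.42. The KO cells with 2 to 9 endoderm UMIs, at 26.4 CPM (18.7 to 36.2), stayed at the endoderm-low level.

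The rise in Cldn6 was spread unevenly over the endoderm-high cells. Of the 94 cells, 29 held no Cldn6 UMI, and the 5 cells with the most held 22.7% of its 335 UMIs, up to 17 in a cell. The thinned share was 56.0% (45.2 to 66.4), against 24.3% (20.7 to 28.3) in KO and 28.4% (25.3 to 31.7) in WT endoderm-low cells, where the last intervals overlapped. The Fano factor, the variance of thinned counts over their mean, was 2.79 in endoderm-high cells and 1.30 and 1.36 in KO and WT endoderm-low cells. No Cldn6 UMI was found in the 22 KO fibroblast-like cells.

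Cldn7 (claudin 7, chr11:69964779-69967885) is a claudin that also binds Epcam. It was at 36.0 CPM (33.6 to 38.5) in WT and 23.2 CPM (20.8 to 25.9) in KO endoderm-low cells, a log2 ratio of -0.63 (-0.82 to -0.45) that 2.27% of genes lay below. It was just under 1.5 fold with each cell counted alike (-0.55), with mitochondrial shares of 1 to 5% (-0.52) and with 0 endoderm UMIs (-0.54). KO endoderm-high cells stood at 39.9 CPM (32.1 to 49.0), which was 0.79 (0.43 to 1.12) above the KO endoderm-low cells and overlapped the WT endoderm-low level. This difference was 0.15 with mitochondrial shares of 1 to 5%. In thinned cells 18.1% (14.9 to 21.7) of KO and 26.9% (23.8 to 30.1) of WT endoderm-low cells carried it. Its share in endoderm-high cells, 23.1% (14.9 to 33.1), overlapped both.

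Jam2 (junctional adhesion molecule 2, chr16:84774123-84825928) is an immunoglobulin-type protein of cell contacts. It was at 75.3 CPM (71.8 to 79.0) in WT endoderm-low cells, 44.4 CPM (41.0 to 48.0) in KO endoderm-low cells and 8.42 CPM (5.07 to 13.1) in KO endoderm-high cells. This was the reverse of the order of Cdh1, and no intervals overlapped. The log2 ratio was -0.76 (-0.90 to -0.63) for KO over WT, with 1.35% of genes below it, and -2.36 (-3.14 to -1.74) between the KO classes, with 0.761% of genes below it. Shares of thinned cells had the same order, at 46.6% (43.1 to 50.2), 33.6% (29.5 to 37.8) and 5.49% (1.81 to 12.4). In endoderm-high cells 83 of 94 held no Jam2 UMI, and its 19 UMIs lay in 11 cells. KO cells with 2 to 9 endoderm UMIs stood at 37.5 CPM (28.2 to 48.9), which overlapped the KO endoderm-low level. WT cells with 2 to 9 endoderm UMIs were lower than WT endoderm-low cells, at 29.1 CPM (15.9 to 48.9) from 14 UMIs. Macrophage genes marked 3 of these 57 KO and 1 of these 17 WT cells.

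The tight junction and polarity list of 23 genes had 11 genes at 10 CPM or more in endoderm-low cells. Of these 0 were higher in KO (4.57% of all genes) and 3 lower (2.84%), namely Cldn7, Jam2 and Crb3. Crb3, a small apical polarity protein, went from 42.6 CPM in WT to 24.3 CPM in KO (log2 ratio -0.81, -0.99 to -0.63). In KO endoderm-high cells 10 of 15 were higher than in endoderm-low cells (26.9% of all genes) and 2 lower (11.3%), and the list's median log2 ratio was 0.92. Besides Cldn6 the largest rises were in Inadl, a polarity scaffold (1.45 to 19.5 CPM, log2 ratio 3.73), Jam3 (8.27 to 32.3 CPM, 1.97) and Pard3 (17.5 to 47.4 CPM, 1.44). Cldn4 went from 35.9 to 3.99 CPM (-3.09, -4.31 to -2.24). Within the claudins and within the junctional adhesion molecules the direction thus differed by gene: Cldn6 and Jam3 were higher in the endoderm-high cells, and Cldn4 and Jam2 lower.

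Epcam (chr17:87635979-87651129) is an adhesion protein of epithelia and of pluripotent cells. It was close in the endoderm-low cells of both libraries, at 198.9 CPM (193.2 to 204.8) in WT and 187.7 CPM (180.7 to 194.9) in KO, a log2 ratio of -0.08 (-0.15 to -0.01). KO endoderm-high cells had 137.8 CPM (122.9 to 154.0), lower by 0.44 on the log2 scale (-0.44, -0.62 to -0.28) and within 1.5 fold, or -0.61 and past it with TMM scaling. Shares of thinned cells were 82.5% (79.7 to 85.1) in WT and 79.9% (76.2 to 83.3) in KO endoderm-low cells and 67.0% (56.4 to 76.5) in endoderm-high cells. Epcam therefore stayed detectable in most endoderm-high cells. Of the pluripotency markers, only Zfp42 was not lower in these cells than in KO endoderm-low cells. It was at 120.1 CPM from 271 UMIs against 105.5 CPM from 1530 UMIs, without an interval of the ratio. The others were lower by unequal amounts, such as Klf4 (162.2 against 247.3 CPM), Pou5f1 (457.3 against 752.8 CPM) and Sox2 (20.4 against 217.6 CPM). Epcam separated epithelial from feeder cells, with 0 UMIs in the 22 KO fibroblast-like cells and 6 UMIs in 1 of the 9 WT ones.

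**Figure D3:**
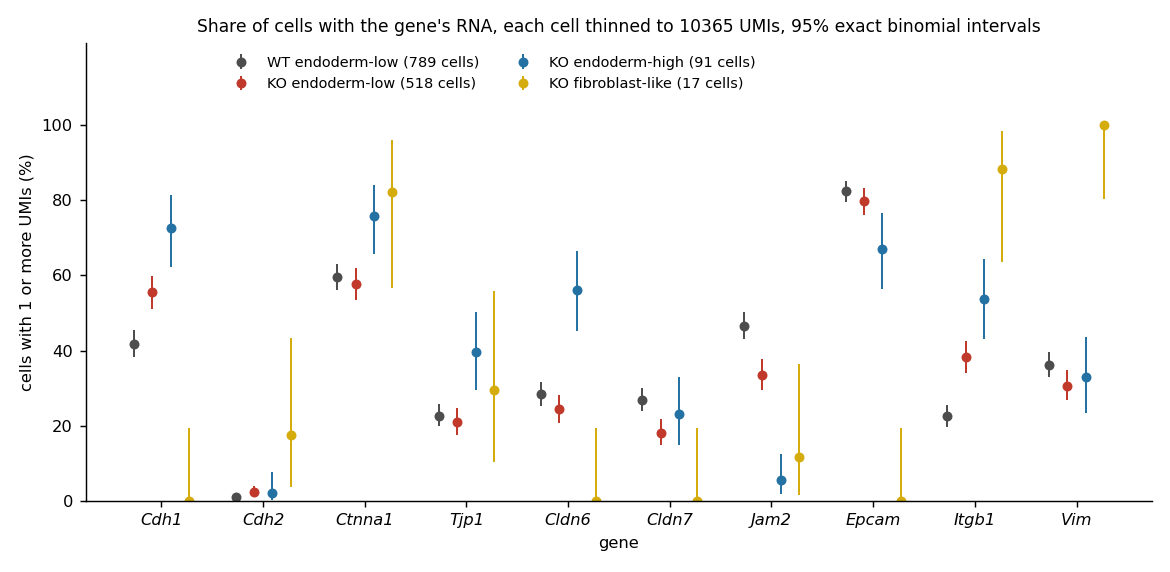
Share of cells with at least 1 UMI of each member after every cell was thinned to 10365 UMIs, with 95% exact binomial intervals. WT endoderm-low, KO endoderm-low, KO endoderm-high and KO fibroblast-like cells are shown. Intervals of KO and WT endoderm-low cells lie apart for Cdh1, Cldn7, Jam2 and Itgb1, which is 4 of the 9 members at 10 CPM or more against 16.9% of all 6440 genes tested. None of the 17 fibroblast-like cells held a UMI of Cdh1, Epcam, Cldn6 or Cldn7, and all held Vim.

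Itgb1 (integrin beta 1, chr8:128685654-128733200) pairs with many alpha chains to bind laminin, collagen and fibronectin. It was at 25.5 CPM (23.5 to 27.7) in WT and 43.8 CPM (40.4 to 47.3) in KO endoderm-low cells and at 83.3 CPM (71.8 to 96.1) in KO endoderm-high cells. The 3 levels had the order of those of Cdh1, with no overlap. The log2 ratio was 0.78 (0.61 to 0.94) for KO over WT, above 98.1% of the genes tested, and 0.93 (0.69 to 1.17) between the KO classes. With mitochondrial shares of 0 to 10% the first was 0.57, just under 1.5 fold. Thinned shares were 22.6% (19.7 to 25.6), 38.2% (34.0 to 42.6) and 53.8% (43.1 to 64.4). The KO fibroblast-like cells were far higher, at 412.6 CPM (363.6 to 466.3).

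Of 15 integrin genes 5 reached 10 CPM in endoderm-low cells. Among these 2 were higher in KO, Itgb1 and Itga3, against 4.57% of all genes, and 0 lower, against 2.84%. Itga3, the alpha chain of a laminin receptor, went from 8.24 CPM in WT to 19.4 CPM in KO (log2 ratio 1.24, 0.97 to 1.51). In KO endoderm-high cells Itgb1 and Itga5, the alpha chain of the fibronectin receptor, were higher than in endoderm-low cells. Itga5 rose from 14.2 to 48.3 CPM there (1.77, 1.42 to 2.11), while Fn1, which encodes fibronectin itself, fell from 176.8 to 41.2 CPM (-2.09, -2.42 to -1.80).

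Vim (vimentin, chr2:13573927-13582826) builds the intermediate filaments of mesenchymal cells. Levels were 62.3 CPM (59.1 to 65.6) in WT and 50.1 CPM (46.5 to 53.8) in KO endoderm-low cells, a log2 ratio of -0.32 (-0.45 to -0.19). KO endoderm-high cells stood at 101.9 CPM (89.2 to 116.0), a log2 ratio of 1.03 (0.81 to 1.24) over the endoderm-low cells. The level in fibroblast-like cells was 3353.8 CPM in KO and 2381.8 CPM in WT, far above either endoderm-low class.

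Some cells of the endoderm-high and endoderm-low classes carried markers of other cell types. The 2 macrophage-marked cells held 41 of the 230 Vim UMIs of the KO endoderm-high class, and without them its level was 84.9 CPM and the log2 ratio 0.77 (0.52 to 0.996). Even then 5 of 92 cells held 47.6% of the Vim UMIs and 53 held none. The Fano factor was 7.19 over the 91 thinned cells of the whole endoderm-high class, from which macrophage-marked cells were not removed. The shares of cells with Vim overlapped, at 33.0% (23.5 to 43.6) of endoderm-high and 30.7% (26.7 to 34.9) of KO endoderm-low cells. In the endoderm-low classes the cells with the most Vim held 36 UMIs in KO and 96 in WT, and 4 of the top 5 KO cells and 5 of the top 5 WT cells had fewer than 3 UMIs of Pou5f1. Without the cells under that limit Vim was 43.6 CPM in KO and 52.2 CPM in WT, a log2 ratio of -0.26 (-0.40 to -0.12). Those 11 KO and 28 WT cells also carried fibroblast markers, summed to 1351.1 and 674.8 CPM against 14.7 and 6.86 CPM in the remaining endoderm-low cells. Vim stood at 1.38 and 1.62 UMIs per Bgn UMI in them, at 2.17 and 1.33 in the KO and WT fibroblast-like cells, and at 41.8 and 72.8 in the remaining endoderm-low cells. Per Col1a1 UMI the order differed, at 62.25 in the 28 WT cells, 4.32 in WT fibroblast-like cells and 43.15 in the remaining WT cells. The 11 KO cells held 72 Bgn and 61 Thy1 UMIs but 0 of Col1a1 and 0 of Meg3. Trophectoderm and keratin genes summed to 226.7 CPM in the 11 KO and 1855.2 CPM in the 28 WT cells. The part of feeder RNA or cells in these values was not tested.

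Among 8 mesenchymal genes 5 reached 10 CPM in endoderm-low cells. S100a6, a calcium-binding protein, was the one past 1.5 fold, at 79.8 CPM in WT and 197.1 CPM in KO (log2 ratio 1.31, 1.22 to 1.39). Of all genes 4.57% were at least 1.5 fold higher in KO and 2.84% lower. In KO endoderm-high cells 2 of 5 were higher and 3 lower than in endoderm-low cells, against 26.9% and 11.3% of all genes. The higher ones were Vim and Sparc, a matrix protein made by primitive and parietal endoderm, which went from 99.9 to 2267.2 CPM (4.504, 4.42 to 4.59). The lower ones were Fn1, S100a6 (-0.97) and Lgals1 (-0.59). The 2 macrophage-marked cells were rich in S100a6, which without them was at 35.5 CPM (-2.46), and Lgals1 was then at -0.84. None of the 6 repressors of epithelial genes (Snai1, Snai2, Zeb1, Zeb2, Twist1, Twist2) had a mean of 10 CPM in either comparison, and the highest of their levels was that of Snai1 in KO endoderm-high cells, 10.6 CPM from 24 UMIs against 0.896 CPM in KO endoderm-low cells.

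Desmosomes and gap junctions add 2 further kinds of contact. Perp, a desmosomal membrane protein, was the 1 of 4 desmosome genes past 1.5 fold in endoderm-low cells. Of all genes 4.57% were higher and 2.84% lower by as much. Perp was at 22.7 CPM in WT and 51.6 CPM in KO (log2 ratio 1.19, 1.02 to 1.35). Between the KO classes 1 of 5 desmosome genes was higher and 2 lower in endoderm-high cells, against 26.9% and 11.3% of all genes. The higher one was the desmosomal cadherin Dsg2, which went from 10.9 to 32.8 CPM (1.60). Perp fell from 51.6 to 20.4 CPM between the same classes (-1.33), and Pkp2 from 17.85 to 11.5 CPM (-0.61, -1.27 to -0.05). Of the gap junction proteins, the connexins Gjb5 (10.3 to 91.3 CPM, 3.15) and Gja1 (57.2 to 212.2 CPM, 1.89) were higher in endoderm-high than in endoderm-low KO cells, and Gjc1 (42.4 to 15.9 CPM, -1.39) was lower. Between the genotypes Gja1 passed 1.5 fold, at 36.4 CPM in WT and 57.2 CPM in KO (0.65, 0.51 to 0.79). Of 7 epithelial regulators 2 reached 10 CPM, the members Cdh1 and Epcam, with the values given above.

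Cdh1 and Itgb1 share chromosome 8, and the libraries differed in that chromosome. The share of a cell's UMIs from chromosome 8 was taken relative to the median WT cell, and a cell above 1.2 was called raised. This held for 281 of 580 KO endoderm-low cells (48.4%, 44.3 to 52.6), for 87 of 873 WT ones (9.97%, 8.06 to 12.2) and for 62 of 94 KO endoderm-high cells (66.0%, 55.5 to 75.4). The median raised cell stood at 1.41 in both libraries. Over all endoderm-low cells the median log2 ratio of KO over WT was 0.26 for 372 genes of chromosome 8, whereas the medians of the other chromosomes lay between -0.04 and 0.08.

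Within cells of usual chromosome 8 share, Cdh1 was at 55.6 CPM (52.4 to 59.0) in 786 WT cells and 75.7 CPM (69.5 to 82.3) in 299 KO cells, a log2 ratio of 0.45 (0.30 to 0.59). Among raised cells it was at 76.7 CPM in WT and 111.2 CPM in KO (0.53, 0.30 to 0.78). Itgb1 gave 24.0 and 32.9 CPM in usual cells (0.46, 0.23 to 0.68) and 39.0 and 54.9 CPM in raised cells (0.49, 0.16 to 0.84). Both genes were thus higher in KO cells within each kind of cell too, at under 1.5 fold in place of the 0.69 and 0.78 over all cells. The median of the other chromosome 8 genes was 0.03 in usual and 0.02 in raised cells. Raised cells were above usual cells of the same library by 0.56 in KO and 0.47 in WT for Cdh1 and by 0.74 and 0.71 for Itgb1, beside medians of 0.47 and 0.52 for chromosome 8.

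**Figure D4:**
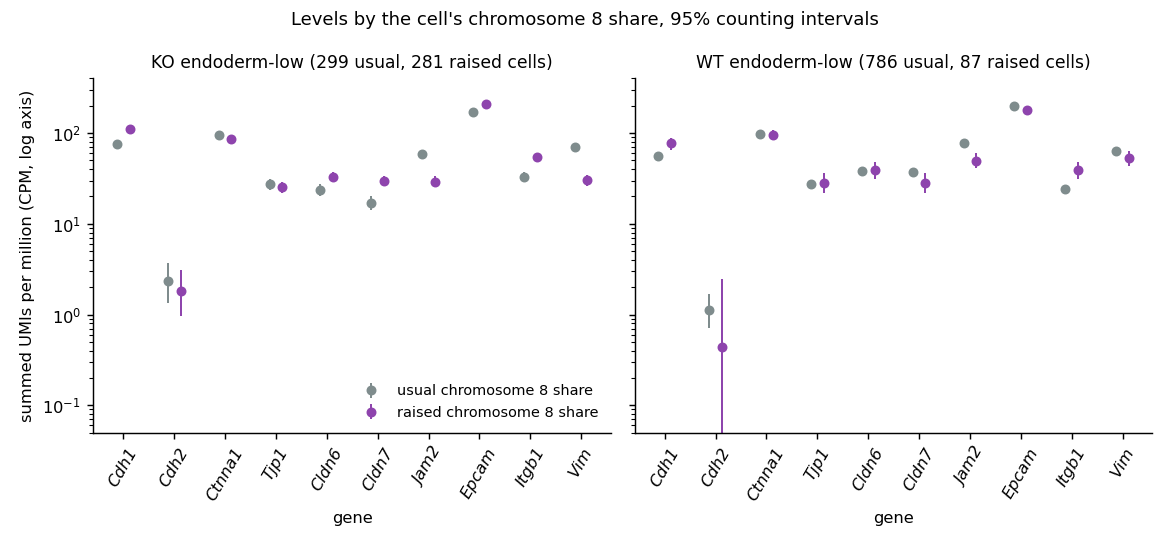
Level of each member in CPM (log axis) in endoderm-low cells of usual and of raised chromosome 8 share, for KO on the left and WT on the right, with 95% Poisson intervals. Cdh1 and Itgb1 are higher in raised cells of both libraries, and Jam2 is lower in them. Vim is lower in raised than in usual KO cells, at 30.1 against 69.5 CPM.

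Members on other chromosomes also differed by this division. Jam2 (chromosome 16) was lower in raised than in usual cells, at 29.1 against 59.3 CPM in KO (log2 ratio -1.02, -1.27 to -0.78) and 49.5 against 78.2 CPM in WT (-0.65, -0.95 to -0.38). Cldn7 (chromosome 11) was higher in raised KO cells, at 29.7 against 16.9 CPM (0.81, 0.49 to 1.14), and lower in raised WT cells, at 28.1 against 36.9 CPM (-0.38, -0.79 to -0.02). The KO over WT ratio of Cldn7 was accordingly -1.12 (-1.41 to -0.85) in usual cells and 0.07 (-0.33 to 0.51) in raised cells, and that of Jam2 was -0.40 (-0.55 to -0.24) and -0.77 (-1.10 to -0.42). Vim stood at 69.5 CPM in usual and 30.1 CPM in raised KO cells (-1.21, -1.44 to -0.98), and its KO over WT ratio was 0.14 (-0.02 to 0.28) in usual and -0.81 (-1.13 to -0.47) in raised cells. Epcam gave -0.25 (-0.34 to -0.16) and 0.20 (0.04 to 0.36). Cldn6 gave -0.69 (-0.94 to -0.45), past 1.5 fold, in usual and -0.25 (-0.60 to 0.12) in raised cells. Genotype, chromosome 8 share and any difference of clone or passage between the libraries cannot be told apart for these genes. In the endoderm-high comparison, Cdh1 was 0.65 in usual and 0.14 in raised cells, against 0.38 over all cells. Cldn6 was 3.07 in usual and 1.93 in raised cells and Cldn7 1.75 and 0.12, so the difference of Cldn7 between the KO classes was below 1.5 fold within raised cells. That of Ctnna1 was too, at 0.53, and 4 members in place of 6 were higher there, against 24.6% of all genes.

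The 3 WT endoderm-high cells were too few for a comparison and are given one by one. The cell with 126 endoderm UMIs and no macrophage markers held 40 UMIs of Cldn6, 14 of Cldn7, 7 of Cdh1, 5 of Epcam, 4 each of Ctnna1 and Itgb1 and 1 of Vim, out of 46778 UMIs, and 0 of Jam2. Of the members, this WT cell had its highest count in Cldn6 and none in Cdh2, Tjp1 or Jam2. The others, which carried macrophage genes, held 27 and 6 UMIs of Vim and 0 and 4 of Epcam.

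From cell to cell the members varied little together. Over thinned WT endoderm-low cells the closest pair was Epcam with Cldn7, with Pearson's r of 0.21 in 789 WT cells and 0.15 in 518 KO cells, and Epcam with Cldn6 gave 0.15 and 0.20. Among 2307 genes the most similar to Epcam were Ldha (0.21), Pkm (0.21) and Eno1 (0.19), to Cldn6 Eno1 (0.21), Pkm (0.18) and Pdia6 (0.17), to Cdh1 Sept2 (0.14), Ddx3x (0.14) and Ybx3 (0.14), to Vim Ubb (0.16), Spp1 (0.16) and Npm1 (0.15), and to Itgb1 Tpm1 (0.16), Gnas (0.14) and Romo1 (0.13). These values are across cells of 1 library that share depth and sparse counts, and at this size they set no gene apart.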

How the data were processed

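Droplet libraries of KO and WT iPSCs (10x Genomics Chromium, per the labels' protocols) were analysed, 1 per genotype. What the authors deposited is a matrix of raw UMI counts per gene and barcode, as integers, per the file headers. The submitters' processing notes name Cell Ranger 2.0.0, Seurat 3.1.1 and the build mm10 without saying what each did. The annotation, cell calling and strand rule are not given in the sources used here. Members, lists and rules were chosen with earlier results of these data known.

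Counts were summed over each class and scaled to CPM, and log2 ratios were taken with 0.5 counts added. Called means 1.5 fold at a mean of 10 CPM or more. Intervals (95%) are exact Poisson, conditional binomial or Clopper-Pearson. A count of 0 was given a limit of 3 counts. Positions are from GENCODE M21, which held 98.7% of the genes. Named beside the 10 members were up to 4 genes per list of largest size past 1.5 fold with an interval off 0, the 3 genes most correlated with Cdh1, Epcam, Cldn6, Vim and Itgb1, and Srf. The Snai1, Sox2, Zfp42, Klf4 and Pou5f1 values, the macrophage genes and the limit of 3 Pou5f1 UMIs were chosen after the data were seen. Doublets were kept. Scrublet (scanpy 1.11.5) called 2 of 997 KO and 10 of 919 WT cells, and leaving them out was an alternative, as were other scalings, filters and chromosome 8 classes. Calculations used numpy 2.4.6, scipy 1.17.1 and pandas 2.3.3 and were tested on simulated data. One gene of the gap junction list is not reported here.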

Additional observations from a re-analysis of the deposited data

Results flagged for a closer look

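Cells with under 1% mitochondrial counts, 227 in KO and 16 in WT, were left out of the comparisons above. In them 3 members, Cdh1, Itgb1 and Vim, had the opposite direction to that in the endoderm-low cells, with intervals that leave out 0. Cldn6 (-3.27), Cldn7 (-2.87) and Epcam (-1.14, against -0.08 in endoderm-low cells) had log2 ratios below 0 in both kinds of cell. Tjp1 was at -2.11 here, and its interval in endoderm-low cells holds 0. The intervals of Jam2 (-0.32) and Ctnna1 (0.24) here hold 0. Single cells weighed heavily among the 16 WT cells. The largest count in a cell was 38 of 48 UMIs for Cldn6, 14 of 28 for Cldn7 and 34 of 82 for Epcam. For Cdh1 it was 8 of 13, for Itgb1 5 of 7, for Tjp1 3 of 8 and for Vim 4 of 11. The intervals do not reflect this unevenness between cells. Cdh1 had 19 UMIs (7.50 CPM) in KO and 13 (45.5 CPM) in WT, a log2 ratio of KO over WT of -2.62 (-3.69 to -1.46) against 0.69 in endoderm-low cells. Itgb1 had 12 UMIs (4.74 CPM) in KO and 7 (24.5 CPM) in WT, a ratio of -2.41 (-3.83 to -0.79) against 0.78. Vim had 254 UMIs (100.3 CPM) in KO and 11 (38.5 CPM) in WT, a ratio of 1.32 (0.52 to 2.40) against -0.32. These cells were shallow, with medians of 8552 UMIs in KO and 16568.5 in WT, and their keratin and trophectoderm genes summed to 26.1 CPM in KO and 681.7 CPM in WT, whose part in these values was not tested. Within KO Epcam was at 130.7 CPM, against 187.7 CPM in endoderm-low cells (log2 ratio -0.52, -0.69 to -0.36). Cdh1 was lower than in endoderm-low cells by 3.60 on the log2 scale (-3.60). In fibroblast-like cells, 22 in KO and 9 in WT, Vim stood at 3353.8 CPM in KO and 2381.8 CPM in WT, a ratio of 0.49 (0.34 to 0.65), again opposite in sign to that of endoderm-low cells. Each was flagged because the sign differs between kinds of cell with intervals that leave out 0. The differences were not tested, since each kind has 1 library per genotype.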

How the results depend on the processing

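No paired analysis was possible because there was a single library of each genotype. Cdh1, Itgb1 and Jam2 kept their direction between genotypes under all 16 alternatives of the level (13 planned and 3 added after the data were seen), from 0.45 to 0.74, 0.46 to 0.86 and -0.98 to -0.40 on the log2 scale. Between the KO classes 9 members kept theirs, Cdh2 being the exception, and Cldn6 ranged from 1.93 to 3.07 and Jam2 from -2.89 to -1.71. The number of members at least 1.5 fold higher in KO, 2 above, was 0 with mitochondrial shares of 0 to 10% (3.135% of all genes). It was 0 in cells of usual (7.65%) and 0 in cells of raised chromosome 8 share (5.25%), and 1 with mitochondrial shares of 1 to 5% (3.45%). The number lower, also 2, was 1 with mitochondrial shares of 1 to 5% (2.85% of all genes), with each cell counted alike (2.87%), and with endoderm limits of 0 and 20 UMIs (2.815%). It was 2 in usual cells, Cldn6 and Cldn7 without Jam2 (-0.40), against 3.30% of all genes. It was 2 in raised cells without Cldn7, against 3.37%. Signs reversed for Vim in cells of usual chromosome 8 share (0.14) and for Epcam (0.20) and Cldn7 (0.074) in raised cells. Tjp1, whose interval holds 0, kept its sign in 13 of the 16. Between the KO classes 2 members in place of 1 were lower and 5 and 4 in place of 6 higher with TMM scaling and in raised cells, and the members' median was 1.06 in usual and 0.53 in raised cells. Of all genes 21.6% were higher and 16.7% lower with TMM scaling, and 24.6% and 11.9% in raised cells. Share intervals lay apart for 4 members, against 16.9% of all 6440 genes tested. They lay apart for 5 without thinning, 5 at 15000 UMIs and 3 when 2 UMIs were asked of a cell. The share over all genes was not taken under these alternatives, so the counts cannot be read against it. The cause was not tested. Cdh2 and the WT endoderm-high cells were limited by depth.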
